A study of Drosophila melanogaster with 4 samples.

Results

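The proteasome subunit genes of Drosophila melanogaster were taken as all genes of the scRNA-seq matrix whose symbol starts with Prosalpha, Prosbeta, Rpt or Rpn and goes on with a digit, which gave 47 of 13947 genes. Of these, 32 are the canonical subunits, with 7 alpha and 7 beta genes of the 20S core and 6 ATPase (Rpt) and 12 non-ATPase (Rpn) genes of the 19S cap. The other 15 have symbols ending in R or T, with or without a further digit, and are germline-type paralogs of single subunits, which were set apart. The rule takes genes by symbol alone, though it was chosen with earlier results of these data known.

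The proteasome is the protease that degrades proteins tagged with ubiquitin. Its 20S core is a barrel of alpha and beta rings whose active sites lie on Prosbeta1, Prosbeta2 and Prosbeta5, and its 19S cap recognises ubiquitin chains, removes them and unfolds the substrate with a ring of ATPases. In Drosophila several subunits have a second gene, and those best studied act in the male germline during spermatogenesis, where they replace the canonical subunit in the core.

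The libraries were made from vas-GFP embryos, which carry a transgene that marks the germline with green fluorescent protein and let germ cells or whole gonads be collected by fluorescence-activated sorting. One scRNA-seq library covered 0- to 8-h embryos and another 8- to 20-h embryos (germ cells of 8 to 12 h and gonads of 12 to 20 h), and 1 multiome library of nuclei pooled from 0- to 20-h collections was read for nuclear RNA (snRNA-seq) and for chromatin accessibility (ATAC). The 0- to 8-h library had been published earlier by the same group and was re-analysed in the study, whereas the 8- to 20-h library was new. Cells and nuclei of many embryos were pooled, and each library is a single sample without a replicate. Germ cells before zygotic activation are called GC, and female and male germ cells of stages 1 to 3 after it FGC1 to FGC3 and MGC1 to MGC3. The somatic gonadal precursors (SGPs) of the gonad are FSGP in females and aMSGP, pMSGP and msSGP in males.

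These names were rebuilt here for the cells, from markers, the library and the share of X-linked transcripts, so each stands for "GC-like", "FGC1-like" and so on. The subunit genes themselves were left out of clustering and sexing. GC comprised 1575 cells, FGC1 673, MGC1 784, FGC2 874, MGC2 994, FGC3 1017 and MGC3 1016, while the SGP classes comprised 3042 FSGP, 190 aMSGP, 1531 pMSGP and 240 msSGP cells. GC and stage 1 cells came almost wholly from the 0- to 8-h library, with medians of 12465 to 12728 unique molecular identifiers (UMIs, each 1 captured transcript), and stages 2 and 3 from the 8- to 20-h library, with medians of 20198 to 21764. The SGP medians ranged from 1950 UMIs in FSGP to 25171 in aMSGP. A further 480 germ cells in clusters shared by both scRNA-seq libraries and 835 cells with both germline and SGP markers were kept out of these classes. The libraries shared 0 cell barcodes. With 1 library per stage no test was run, and all intervals are exact 95% intervals that cover counting error only. A gene was called higher or lower where its CPM (UMIs per 1000000 UMIs of the class) differed at least 1.5-fold between 2 classes that together held 200 UMIs of it.

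Promoter windows are shown first because they hold the sequence feature that canonical subunits carried more often than other genes. Each window runs from 250 bases before to 50 after the annotated start of the gene, read from the RefSeq genome of the BDGP6 (Release 6) assembly, and capitals mark a match to the DRE (TATCGATA, which reads the same on both strands), to the Motif 1 core (GGTCACAC) or to the antioxidant response element (TGACNNNGC). The DRE is bound by Dref and BEAF-32, Motif 1 by M1BP, and the antioxidant response element by factors of the Nrf family such as Cnc. The windows of Prosalpha6 and Prosbeta2 stand for the 20S core, those of Rpt5 and Rpn7 for the 19S cap, and those of Rpt3R and Rpt4R for the paralogs, which had no match. The DRE lay 16 bases before the start in Prosalpha6, 10 before it in Prosbeta2 and 46 before it in Rpt5. Rpn7 alone among the 47 genes had a match to each of the 3 motifs.
Prosalpha6 (chr2L:10221101-10221400, + strand): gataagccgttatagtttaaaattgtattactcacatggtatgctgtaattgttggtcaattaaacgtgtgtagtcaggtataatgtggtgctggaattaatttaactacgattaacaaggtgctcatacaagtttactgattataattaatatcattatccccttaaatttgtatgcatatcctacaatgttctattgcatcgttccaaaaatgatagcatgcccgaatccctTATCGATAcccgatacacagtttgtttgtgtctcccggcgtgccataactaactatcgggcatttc
Prosbeta2 (chr3L:14999701-15000000, + strand): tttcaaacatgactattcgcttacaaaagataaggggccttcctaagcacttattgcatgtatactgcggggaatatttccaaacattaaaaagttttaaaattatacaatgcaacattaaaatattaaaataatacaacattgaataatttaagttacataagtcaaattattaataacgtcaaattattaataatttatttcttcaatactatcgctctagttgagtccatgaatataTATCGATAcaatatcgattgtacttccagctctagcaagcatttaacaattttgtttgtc
Rpt5 (chr3R:23752626-23752925, + strand): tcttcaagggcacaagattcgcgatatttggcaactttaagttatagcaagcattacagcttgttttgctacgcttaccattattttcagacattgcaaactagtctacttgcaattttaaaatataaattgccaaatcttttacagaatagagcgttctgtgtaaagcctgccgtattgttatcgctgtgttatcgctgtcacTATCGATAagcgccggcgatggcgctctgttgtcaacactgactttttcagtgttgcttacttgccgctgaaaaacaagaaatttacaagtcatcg
Rpn7 (chr3R:22462005-22462304, - strand): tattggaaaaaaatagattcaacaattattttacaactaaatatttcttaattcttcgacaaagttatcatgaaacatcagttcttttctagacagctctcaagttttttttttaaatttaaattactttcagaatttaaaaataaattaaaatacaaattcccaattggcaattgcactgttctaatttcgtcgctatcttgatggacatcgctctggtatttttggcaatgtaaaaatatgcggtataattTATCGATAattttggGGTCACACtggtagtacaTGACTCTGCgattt
Rpt3R (chr3R:9756461-9756760, - strand): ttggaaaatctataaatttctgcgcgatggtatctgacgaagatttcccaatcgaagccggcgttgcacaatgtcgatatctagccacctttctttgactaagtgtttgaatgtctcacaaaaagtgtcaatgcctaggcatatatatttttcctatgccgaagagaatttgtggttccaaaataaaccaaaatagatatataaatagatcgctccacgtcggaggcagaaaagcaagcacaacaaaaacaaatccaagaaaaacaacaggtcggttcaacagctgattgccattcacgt
Rpt4R (chr3L:11941662-11941961, + strand): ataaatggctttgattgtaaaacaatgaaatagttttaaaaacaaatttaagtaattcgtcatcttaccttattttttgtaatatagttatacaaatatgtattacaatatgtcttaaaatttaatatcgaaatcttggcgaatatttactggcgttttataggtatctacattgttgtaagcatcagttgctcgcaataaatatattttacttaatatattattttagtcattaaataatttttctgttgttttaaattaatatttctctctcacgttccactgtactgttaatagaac

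The DRE was found in 12 of 32 canonical windows, or 37.5%, and in 1307 of 13968 windows of all protein-coding genes, or 9.36%. It was found in 6 of 14 core genes, or 42.9%, in 6 of 18 cap genes, or 33.3%, and in 0 of 15 paralogs. The carriers were Prosalpha3, Prosalpha5, Prosalpha6, Prosbeta1, Prosbeta2, Prosbeta6, Rpt5, Rpn3, Rpn7, Rpn9, Rpn12 and Rpn13. The Motif 1 core was found in 5 canonical windows (15.6%, against 7.69% of all windows) and the antioxidant response element also in 5 (15.6%, against 8.62%), and the only match in a paralog was an antioxidant response element in Prosbeta4R2. Matches to these 2 motifs overlapped in Rpn1 and in Prosbeta3. A match is a run of letters and was not tested as a binding site.

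**Figure D1:**
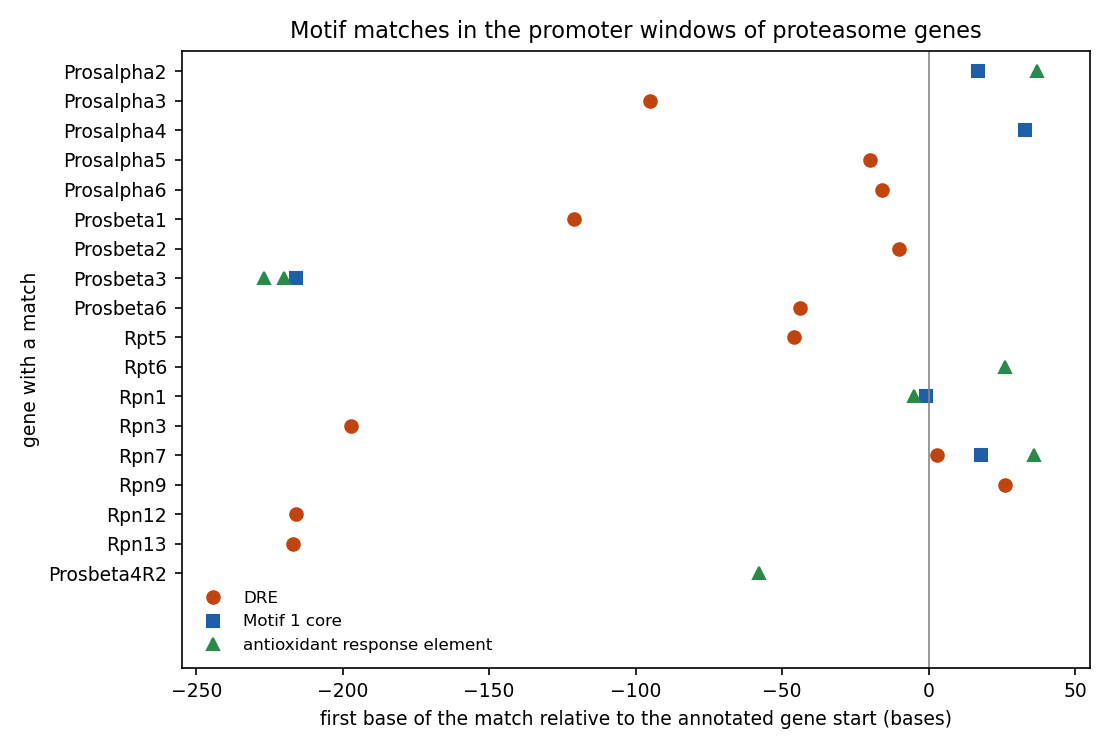
Position of each motif match in the promoter windows of proteasome genes. The horizontal axis is the distance in bases of the first base of the match from the annotated gene start, each row is a gene with at least 1 match, and symbols mark the 3 motifs; 12 canonical genes have a DRE and the only paralog with a match is Prosbeta4R2.

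Accessible chromatin lay at most of these starts. An ATAC peak within 250 bases of the start was found for 12 of 14 core genes and 12 of 18 cap genes, for 5 of 15 paralogs and for 55.1% of all protein-coding genes. Summed over the core genes, the starts held 1124 ATAC CPM in GC nuclei, against 1286 in FGC1, 1157 in MGC1 and 1318 in FGC2 nuclei. FSGP nuclei had 927. The ratio of FGC1 to GC was 1.14 (0.952 to 1.38), so that a difference was not detectable at this depth. At cap starts the ratio of FGC1 to GC was 1.21 (0.978 to 1.51). The ratio of FGC1 to MGC1 was 1.11 (0.992 to 1.25) at core starts and 1.25 (1.09 to 1.43) at cap starts. FGC2 was above FSGP by 1.42-fold (1.34 to 1.51) at core starts and by 1.36-fold (1.28 to 1.46) at cap starts. Paralog starts gave a like ratio of 1.46 (1.15 to 1.86), so the difference was not particular to the canonical genes. The starts of all genes were not summed for comparison.

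Canonical subunits took 1.37% of all UMIs in GC. After activation the female shares were 1.01% at stage 1, 0.722% at stage 2 and 0.662% at stage 3, and the male shares were 1.00%, 0.757% and 0.854%. In the SGPs they took 0.276% in FSGP, 0.266% in aMSGP, 0.426% in pMSGP and 0.324% in msSGP, and in the other somatic classes between 0.349% in muscle and 0.472% in neurons. Every germ cell class was thus above every somatic class. Prosalpha1 had only 86 UMIs in all cells. Its gene has a copy annotated beside it (CG30382, also named Prosalpha1R), whose 952-base transcript is identical to the last 952 bases of the Prosalpha1 transcript, so its level is uncertain. How reads that match both genes were treated was not tested. The remaining 31 canonical genes were measured in every comparison of cells.

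**Figure D2:**
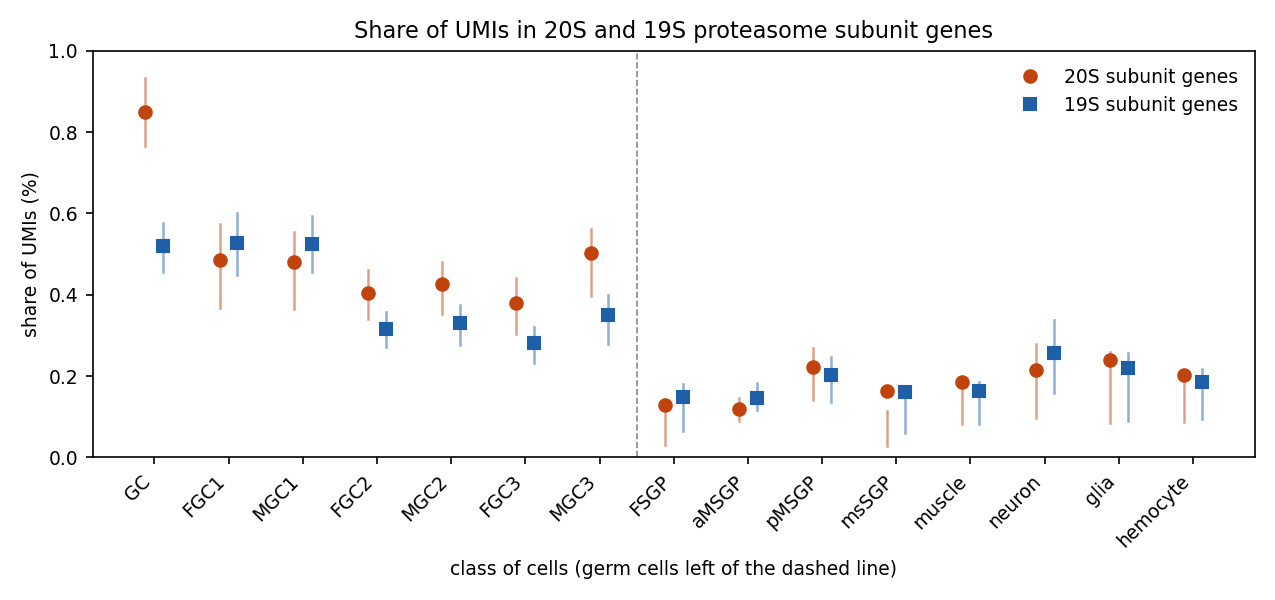
Share of UMIs in 20S and 19S subunit genes by class of cells. Points give the share in percent after summing over the cells of a class, and vertical lines run from the lower to the upper quartile of single cells, which in shallow classes such as msSGP can lie below the summed share. The 20S share is 0.849% in GC and 0.486% in FGC1, while the 19S share is 0.519% and 0.527% there.

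Core and cap did not change together. From GC to stage 1, the 20S share went from 0.849% to 0.484%, a ratio of 0.570 (0.565 to 0.575), while the 19S share went from 0.519% to 0.526%, a ratio of 1.01 (1.00 to 1.02). Single cells showed the same: the quartiles of the 20S share were 0.767% and 0.933% in GC and 0.367% and 0.567% in stage 1, so that these ranges did not overlap. Those of the 19S share were 0.455% and 0.576% in GC and 0.449% and 0.597% in stage 1. Both classes came from the same library, and ribosomal protein and mitochondrial genes took 35.0% of UMIs in GC and 36.2% in stage 1.

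Of the 13 measured core genes 12 were lower at stage 1 and 0 higher, where 16.4% of all 6199 genes compared were lower and 24.5% higher. The median log2 ratio of the core was -0.82, against 0.14 for all genes. Prosbeta1, the caspase-like active subunit, went from 352 CPM in GC to 147 in FGC1 and 159 in MGC1, the largest difference in the core (log2 ratio -1.20). Prosbeta2, the trypsin-like subunit, went from 594 to 323 and 312 (-0.91), and Prosbeta5, the chymotrypsin-like subunit, from 916 to 535 and 523 (-0.79). All 3 active subunits were thus lower in both sexes. In the alpha rings, which gate entry to the core, the smallest value was that of Prosalpha6 (log2 ratio -1.10). Prosbeta4, a structural beta subunit, stood at -1.00. Prosbeta7 was the exception, with 443 CPM in GC, 337 in FGC1 and 349 in MGC1 (-0.36).

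Of the 18 cap genes 1 was lower and 1 was higher, and their median log2 ratio was 0.03. The higher gene was Rpn11, the deubiquitinase that cuts ubiquitin chains from the substrate, at 130 CPM in GC, 194 in FGC1 and 207 in MGC1 (log2 ratio 0.63), a call that was lost with the median ratio of all genes set to 1. It was followed by Rpn8, the partner with which Rpn11 forms a dimer (0.44), and by Rpn10, a ubiquitin receptor (0.42). The lower gene was Rpn5, a scaffold of the lid, at 253, 145 and 155 CPM (-0.75). None of the 6 ATPases was called, and their summed ratio was 1.01 (0.993 to 1.02). Each sex gave the same split: 12 core genes and 1 cap gene were lower both in FGC1 and in MGC1, beside 16.8% and 18.3% of all genes, and the 1 cap gene called higher, in MGC1 only, was Rpn11, beside 23.0% and 22.8% of all genes.

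**Figure D3:**
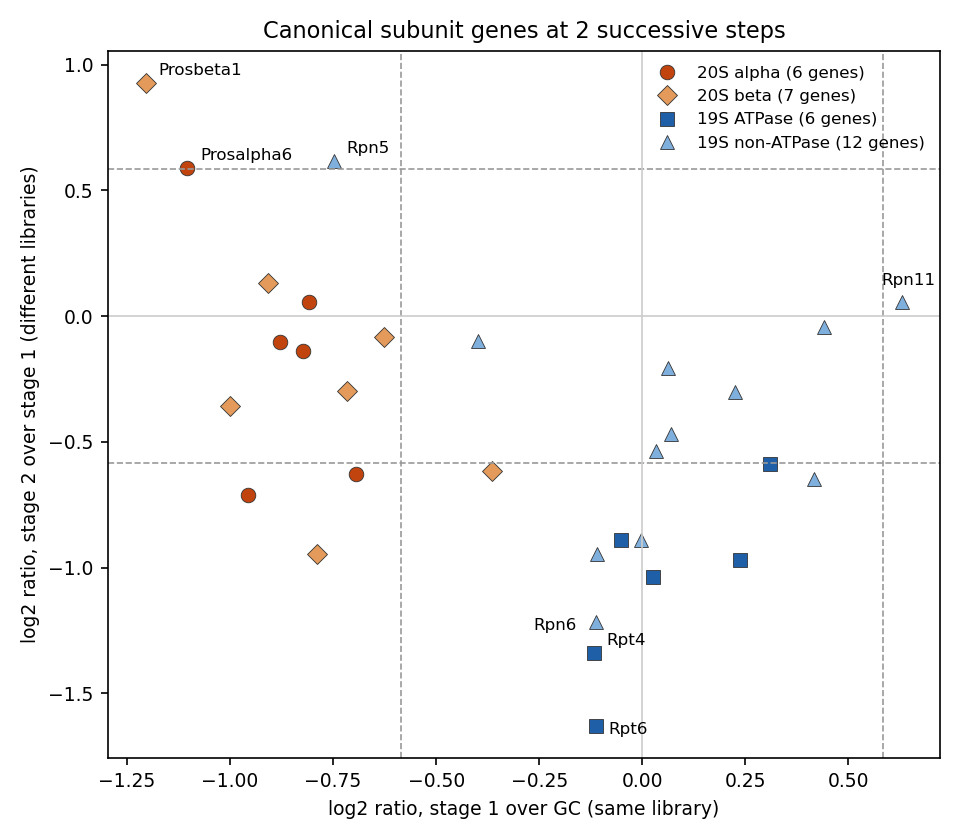
Log2 ratio of each measured canonical subunit at stage 1 over GC (horizontal) and at stage 2 over stage 1 (vertical). Each point is a gene, symbols give the ring or cap part, and dashed lines mark 1.5-fold; 12 of 13 core genes lie left of the left dashed line, and all 6 ATPases lie below the lower dashed line.

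From stage 1 to stage 2 the pattern was the other way round. The 20S share went from 0.484% to 0.416%, a ratio of 0.861 (0.854 to 0.868), and the 19S share from 0.526% to 0.325%, a ratio of 0.618 (0.613 to 0.623). These classes come from different libraries, so stage and library cannot be told apart here, and the share of ribosomal protein and mitochondrial genes was 36.2% at stage 1 and 43.9% and 42.1% in FGC2 and MGC2. Of the 18 cap genes 10 were lower and 1 higher, and of the 13 core genes 4 were lower and 2 higher, where 23.2% of all 6680 genes compared were lower and 24.0% higher.

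The ATPases, which thread the substrate into the core, carried most of the difference. All 6 were lower, with a summed ratio of 0.462 (0.456 to 0.469) and a median log2 ratio of -1.00, against -0.02 for all genes. Rpt6 went from 597 CPM (female) and 503 (male) to 217 and 139 (log2 ratio -1.63), and Rpt4 from 369 and 318 to 161 and 109 (-1.34). Rpt3, the other X-linked ATPase, went from 451 and 358 to 244 and 152 (-1.04). The 3 X-linked ATPases thus had the lowest ratios of the ring. Outside the ring the lowest was Rpn6, a lid subunit that clamps the cap to the core, from 438 and 449 to 185 and 196 CPM (-1.22).

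The genes that were higher at stage 2 had been lower at stage 1. Prosbeta1 stood at 282 CPM in FGC2 and 299 in MGC2 (log2 ratio 0.93), Rpn5 at 229 and 234 (0.62), and Prosalpha6 at 289 and 322 (0.59). Prosbeta2 stood at 324 and 367 (0.13), while Prosbeta5 was lower again, at 256 and 291 (-0.95), so the active subunits moved apart. Over both steps, 9 core genes were lower only at stage 1, 3 at both steps and 1, Prosbeta7, only at stage 2, whereas 10 cap genes were lower only at stage 2, 1 only at stage 1 and 7 at neither step. In females 2 canonical genes were higher and 13 lower from FGC1 to FGC2, beside 21.6% and 26.2% of all genes, and in males 3 were higher and 13 lower, beside 23.1% and 21.4%.

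Nuclear RNA gave a partly different picture. The study called fewer germ cell stages in nuclei than in cells, without FGC3 or MGC3. FGC2 and MGC2 nuclei thus need not match the cells of the same name. In nuclei, placed in the clusters of the study, the 20S share was 0.317% in GC and 0.223%, 0.211% and 0.168% in FGC1, MGC1 and FGC2, where the 19S share was 0.182% and 0.143%, 0.113% and 0.106%. GC was above FGC1 by 1.42-fold (1.34 to 1.5) for the core and by 1.27-fold (1.18 to 1.37) for the cap, so that in nuclei the cap share was also lower after activation. GC held only 92 nuclei, and 18 canonical genes reached 200 UMIs, of which 6 were higher in GC and 0 lower, beside 13.2% and 11.3% of all genes. FGC2 over FGC1 was 0.754 (0.726 to 0.783) for the core and 0.738 (0.704 to 0.774) for the cap, within 1 library. Of 31 genes 6 were lower and 0 higher, beside 12.5% and 6.66% of all genes, the lowest being Rpn2, a scaffold of the cap base (log2 ratio -1.21), Rpn6 (-0.98) and Rpt6 (-0.93). The MGC2 cluster, with a canonical share of 0.574%, held 32 nuclei, 1 of which carried 283462 UMIs, or 80.2% of the total, against 7693 in the next. Without that nucleus the share was 1.02%.

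At stage 1 the canonical share did not differ detectably between the sexes, with a female to male ratio of 1.01 (0.999 to 1.02), and it was 0.954 (0.947 to 0.961) at stage 2 and 0.775 (0.769 to 0.781) at stage 3. X-linked and autosomal subunits went in opposite directions. The 4 X-linked canonical genes, Prosalpha4, Rpt3, Rpt4 and Rpt6, were together higher in females by 1.22-fold (1.19 to 1.24) at stage 1, 1.58-fold (1.54 to 1.61) at stage 2 and 1.35-fold (1.31 to 1.38) at stage 3. The autosomal genes had ratios of 0.970 (0.960 to 0.980), 0.901 (0.894 to 0.908) and 0.728 (0.722 to 0.733). Sex was called from the ratio of X-linked to autosomal UMIs of each cell without these genes. A higher level of X-linked genes in females follows from the sexing itself, and with it a lower share of autosomal genes. Both are given as a description, and how much of the autosomal difference arises this way was not tested. All X-linked genes had median log2 ratios of 0.64, 0.71 and 0.78 at the 3 stages, and the X-linked subunits had medians of 0.29, 0.66 and 0.41.

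**Figure D4:**
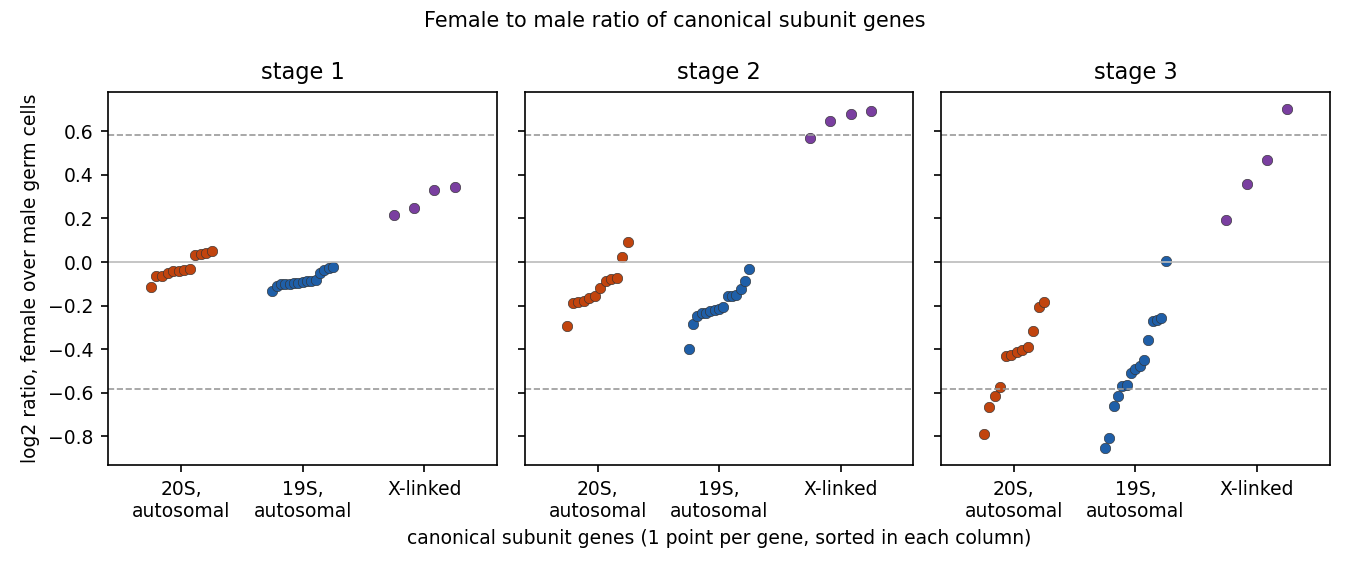
Female to male log2 ratio of canonical subunit genes at the 3 stages after activation. Each point is a gene, sorted within its column, and dashed lines mark 1.5-fold; at stage 3 most autosomal genes of core and cap lie below 0, while the 4 X-linked genes lie above 0 at every stage.

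By gene, 0 canonical subunits were called between FGC1 and MGC1, beside 9.77% of all genes higher and 0.332% lower in females. At stage 2 the 3 genes called were X-linked and higher in females, beside 13.2% of all genes higher and 4.43% lower. They were the alpha ring gene Prosalpha4 (320 CPM in FGC2 and 198 in MGC2, log2 ratio 0.70), Rpt3 (244 and 152, 0.68) and Rpt6 (217 and 139, 0.65), and the other X-linked gene, Rpt4, lay just inside the limit (161 and 109, 0.57). At stage 3, 1 was higher and 7 were lower in females, beside 18.4% and 19.3% of all genes, so the share called lower was near that of all genes. With the median ratio of all genes set to 1, 1 was higher and 3 were lower, beside 21.1% and 15.1%. The higher gene was Rpt3 (230 CPM in FGC3 and 141 in MGC3, log2 ratio 0.70). The lowest were Rpn7, a lid subunit, at 91.7 and 166 (-0.86), Rpn11 at 155 and 271 (-0.81), and Prosbeta4 at 265 and 457 (-0.79). In nuclei FGC1 was above MGC1, with a ratio of 1.13 (1.09 to 1.17) and 3 of 30 genes higher and 0 lower, beside 34.9% and 7.89% of all genes. That direction depended on the denominator: with ribosomal protein and mitochondrial genes left out it was 0.914.

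Between stages 2 and 3 the sexes parted. The canonical share in females went from 0.722% to 0.662%, a ratio of 0.916 (0.909 to 0.923), and in males from 0.757% to 0.854%, a ratio of 1.13 (1.12 to 1.14). No gene reached 1.5-fold in either sex, beside 6.38% of all genes higher and 11.1% lower in females and 5.94% and 14.8% in males. Of the 31 genes 25 had a female ratio below 1, 8 had a male ratio below 1, and 29 had a lower ratio in females than in males. The largest male values were those of Prosalpha5 (log2 ratio 0.50), Prosbeta4 (0.48) and Prosbeta1 (0.44), and the lowest female values those of Rpt5 (-0.51), Rpt6 (-0.44) and Prosbeta3 (-0.44). Ribosomal protein and mitochondrial genes went from 43.9% to 48.8% of UMIs in females and from 42.1% to 43.2% in males over the same step. With these genes out of the denominator the female ratio was 1.00, so the female decrease was not seen on that scale, while the male ratio was 1.15.

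Germ cells of stages 2 and 3 had 2.36-fold (2.34 to 2.37) the canonical share of the SGPs of the same library. The core differed more, by 2.78-fold (2.75 to 2.81), than the cap, by 1.96-fold (1.94 to 1.98), and the ATPases least, by 1.62-fold (1.59 to 1.64). Of 31 genes 28 were higher in germ cells and 0 lower, where 50% of all 7420 genes were higher and 23.0% lower, and the median log2 ratio was 1.32 against 0.58. With the median ratio of all genes set to 1, 19 were higher and 0 lower, beside 30.5% and 33.9%. Prosalpha5 stood at 310 CPM in FGC2 and 305 in MGC2, against 74.6 in FSGP and 123 in pMSGP (log2 ratio 1.95). Prosbeta3 followed with 554 and 602 against 131 and 208 (1.81). At the other end were Rpt3 (0.31), Rpt4 (0.44) and Rpn13, a ubiquitin receptor (0.53), the 3 genes that were not called. These germ cells had a median of 20670 UMIs and the SGPs one of 2893.

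By sex, FGC2 had 2.62-fold (2.59 to 2.65) the share of FSGP, with 30 genes higher and 0 lower, beside 51.0% and 23.2% of all genes. MGC2 had 1.78-fold (1.76 to 1.80) the share of pMSGP, with 24 higher and 0 lower, beside 50.4% and 17.2%. In MGC2 the X-linked subunits stood at the level of pMSGP, the SGP class with the highest share, with a summed ratio of 1.01 (0.979 to 1.05). The autosomal subunits of MGC2 were 1.90-fold (1.87 to 1.92) higher than those of pMSGP. In FGC2 the X-linked sum was 2.36-fold (2.29 to 2.43) higher than in FSGP. MGC2 and FGC2 were sexed by the ratio of X-linked to autosomal UMIs, and the SGP classes were not. The X-linked and autosomal ratios to SGPs thus depend in part on the sexing, and how far was not tested. The SGP classes themselves differed: FSGP had 0.647-fold (0.638 to 0.657) the share of pMSGP, with 17 genes lower and 0 higher, beside 27.9% and 30.4% of all genes. The lowest were Prosalpha3 (101 CPM in FSGP and 226 in pMSGP, log2 ratio -1.16), Prosbeta4 (98.4 and 199, -1.02) and Prosalpha4 (76.7 and 148, -0.95), and Rpn13 was the only gene above 0 (138 and 115, 0.27). The aMSGP share of 0.266% was close to that of FSGP, so the value of pMSGP was not shared by all male SGPs.

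In nuclei the contrast of the classes named FGC2 and FSGP split the complex. FGC2 over FSGP was 1.80 (1.74 to 1.86) for the core, with all 13 measured core genes higher, and 1.13 (1.08 to 1.17) for the cap, with 0 of 18 called, beside 33.6% of all genes higher and 25.1% lower. The ATPase sum was 0.942 (0.878 to 1.01). The highest were Prosalpha5 (log2 ratio 1.02), Prosbeta2 (0.94) and Prosalpha3 (0.93), and the lowest Rpt3 (-0.52).

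Of the 15 paralogs 6 had 20 UMIs or more in all cells, 9 had fewer, and 3 of these, Prosalpha3T, Prosbeta4R1 and Prosbeta4R2, had 0 UMIs, which allows up to 0.0172 CPM (3 UMIs of the total). The 6 were Rpt3R, Rpt4R, Rpt6R, Rpn12R, Prosbeta2R2 and Prosalpha4T2, and Prosalpha4T2 reached no more than 0.391 CPM in any class. The coding sequences of the 15 paralogs were 48.3% to 77.0% identical to those of their canonical genes. Most of the T genes, known from Drosophila testis, were thus at or near 0 in the embryo, and 3 of the 6 detected were paralogs of the ATPase ring.

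Paralog UMIs were 6.18-fold (5.53 to 6.92) more frequent at stage 1 than in GC. Rpt3R, the paralog of Rpt3, stood at 14.9 CPM in GC, 86.6 in FGC1 and 92.5 in MGC1, 59.0 and 74.4 at stage 2, and 60.3 and 83.1 at stage 3. Rpt4R stood at 0.152 CPM in GC, 3.24 and 5.04 at stage 1, 34.6 and 48.8 at stage 2, and 20.3 and 55.6 at stage 3. Rpt6R stood at 1.32 in GC, 10.9 and 18.4 at stage 1, 11.7 and 17.9 at stage 2, and 9.21 in both sexes at stage 3. Rpt3R and Rpt6R therefore first reached their level at stage 1 and Rpt4R at stage 2, across the step between libraries. Rpn12R, a paralog of a lid subunit, stayed at or below 5.52 CPM. In nuclei Rpt3R stood at 18.8 CPM in GC, from 10 UMIs, 17.3 in FGC1 and 19.5 in MGC1, without the step seen in cells. Rpt4R stood at 9.40 CPM in GC nuclei, from 5 UMIs, 6.34 in FGC1 and 25.4 in MGC1. The paralog sum of GC nuclei, 33.8 CPM from 18 UMIs, thus lay above that of FGC1, from 52 UMIs, by 1.13-fold (0.622 to 1.96), and below the 50.9 CPM of MGC1. Somatic nuclei were not clearly below germ nuclei. Rpt4R stood at 29.8 CPM in pMSGP nuclei (25.6 to 34.4) and 11.9 in FSGP, against 20.0 in FGC2 and 67.9 in MGC2, the last from 24 UMIs. Rpt3R stood at 12.5 CPM in pMSGP nuclei and 5.46 in FSGP, against 17.5 in FGC2.

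**Figure D5:**
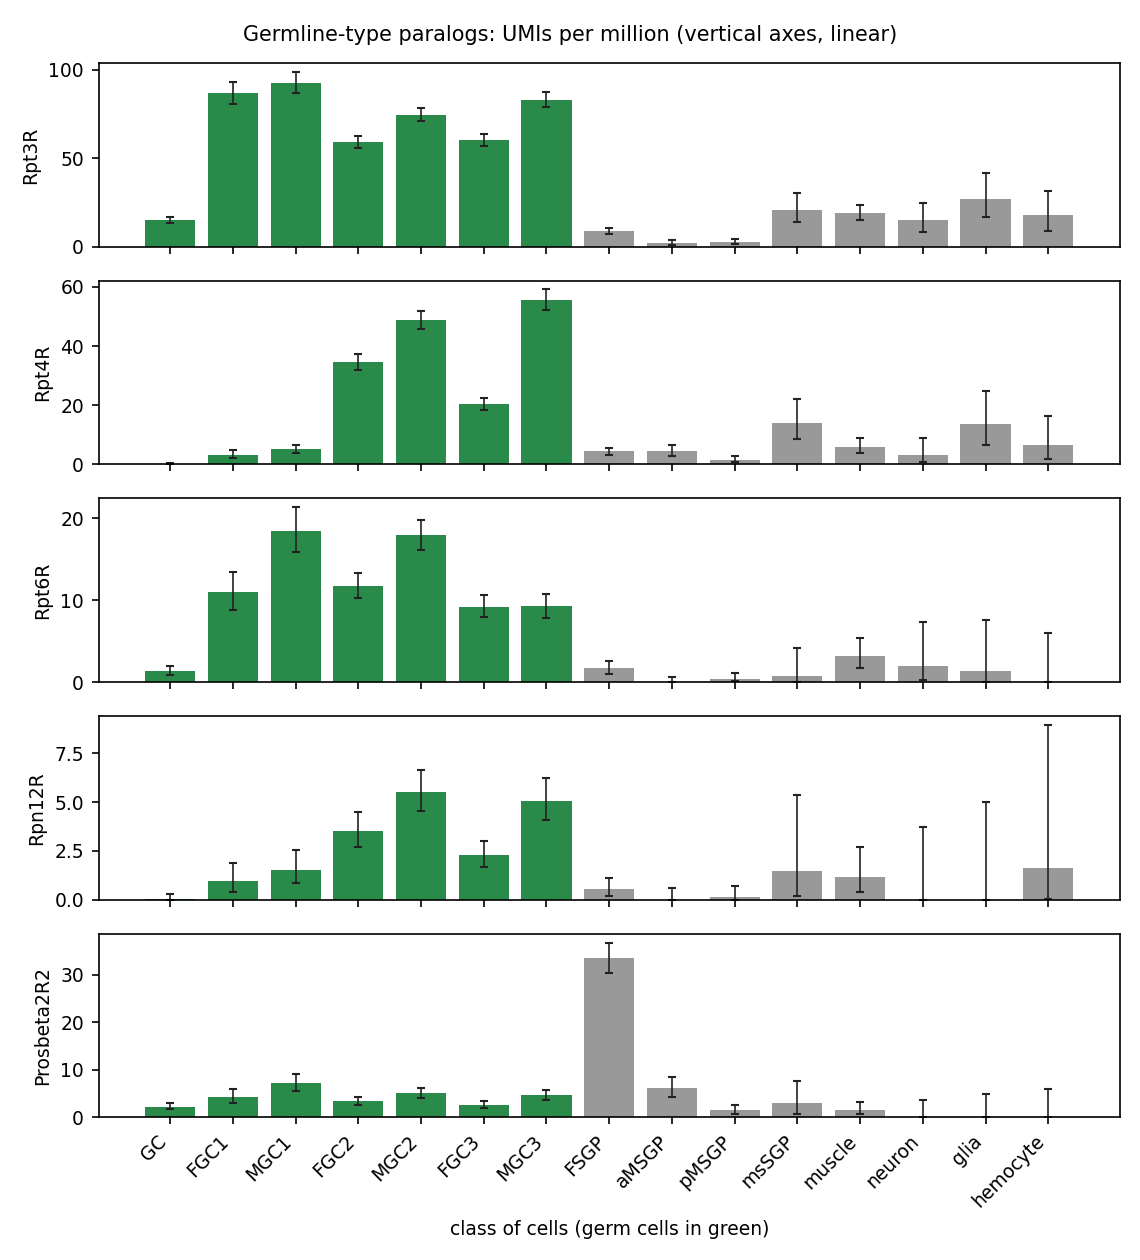
CPM of 5 germline-type paralogs by class of cells, on linear axes that start at 0, with exact 95% Poisson intervals for counting error. Germ cell classes are green and somatic classes grey; the 3 ATPase paralogs are highest in germ cells after activation and Prosbeta2R2 is highest in FSGP, at 33.5 CPM.

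Summed, the paralogs were lower in females, with female to male ratios of 0.849 (0.777 to 0.926) at stage 1, 0.739 (0.699 to 0.781) at stage 2 and 0.602 (0.568 to 0.638) at stage 3. Rpt6R did not share this at stage 3, where its level was the same in both sexes. The paralogs with at least 20 UMIs are all autosomal, and the autosomal canonical genes were also lower in females. Of the genes measured, Rpt4R had the largest difference, with a log2 ratio of -1.45 at stage 3. With each cell thinned to 2000 UMIs, which 1572 of 1575 GC, 663 FGC1, 774 MGC1, 1420 of 1531 pMSGP and 1457 of 3042 FSGP cells reached, Rpt3R was found in 3.24% of GC, 16.4% of FGC1 and 16.5% of MGC1 cells and in 0.282% of pMSGP cells, a class that should lack germline transcripts. Without thinning the shares were 15.6%, 62.3%, 66.3% and 0.588%, at median depths of 12465, 12728, 12696.5 and 4835 UMIs. After thinning the somatic classes ranged from 0% in aMSGP to 2.15% in glia. The intervals of several, among them glia (0.262 to 7.55) and muscle (0.885 to 2.96), overlapped that of GC (2.42 to 4.24). Those of FSGP, aMSGP and pMSGP did not. Somatic classes held Rpt3R at 2.06 to 27.1 CPM. Set against zpg, a germline gap junction gene, there were 12.6 to 41.7 Rpt3R UMIs per 100 zpg UMIs in the somatic classes and 13.6 to 25.7 in germ cells after activation, so the ranges overlapped and the somatic values are not read as expression. The Rpt3R gene overlaps Alg12 on the opposite strand and lies 49 bases before Tti1 on its own strand, and the use of strand in counting is not stated in the sources read here, so its level is uncertain. Alg12 stood at 13.9 CPM in GC and 15.2 in FGC1, and Tti1 at 6.33 and 7.44, without a step like that of Rpt3R.

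Prosbeta2R2, a paralog of the trypsin-like subunit, was the exception among the paralogs. It stood at 33.5 CPM in FSGP, 6.17 in aMSGP, 1.53 in pMSGP and 2.28 to 7.20 in germ cells. In FSGP its 445 UMIs came from 325 cells, with at most 7 in any cell. After thinning it was found in 6.38% of FSGP and 0.282% of pMSGP cells (10.7% and 0.784% without thinning, at median depths of 1950 and 4835 UMIs). Per 100 zpg UMIs it had 73.2 in FSGP, 37.9 (25.5 to 55.2) in aMSGP and 13.6 (6.79 to 25) in pMSGP, against at most 1.44 in germ cells, so in all 3 of these SGP classes the ratio was above that of germ cells. FSGP nuclei held only 2.22 CPM, from 11 UMIs, and FGC2 nuclei 3.26. The gene cno begins 295 bases further on the same strand and was lower in FSGP (80.6 CPM) than in pMSGP (139).

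Genes that work with the proteasome were given as a list of 20, of which 19 were measured. From GC to stage 1, 3 were higher and 3 lower, beside 24.5% and 16.4% of all genes, and from stage 1 to stage 2, 3 were higher and 4 lower, beside 24.0% and 23.2%, so these counts set the list apart in neither step. Sem1, a small lid subunit whose symbol the rule does not take, stood at 632 CPM in GC, 772 and 808 at stage 1 and 217 and 241 at stage 2, and so was lower at the step at which the cap was lower. Uch-L5, the deubiquitinase held by Rpn13, stood at 291, then 350 and 381, then 161 and 209. Rad23, which shuttles ubiquitinated proteins to the cap, was lower already at stage 1, at 749, then 313 and 304, then 191 and 223. Usp14, also listed for ubiquitin removal, was lower at stage 1 and changed little at stage 2, at 249, then 152 and 153, then 138 and 151. The core assembly chaperone Pomp stood at 804, 738 and 726, and 847 and 885, without the difference of the core genes at stage 1. The transcription factor Cnc, an Nrf family member, had a transcript level of 49.8 in GC, 63.8 and 70.1 at stage 1 and 262 and 261 at stage 2, and the polyubiquitin gene Ubi-p63E stood at 42.9, 129 and 157, and 232 and 292.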

How the data were processed

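The deposited scRNA-seq values are UMI counts from Cell Ranger 6.1.2, given for each library and for both aggregated with equalised depth. The deposited multiome values, from Cell Ranger ARC 1.0.0, are UMI counts per nucleus and ATAC counts per peak. The build was BDGP6, and gene positions and sequences came from the Ensembl annotation and the RefSeq genome of that assembly. The 0- to 8-h library held 3802 cells and 42374849 UMIs, the 8- to 20-h library 12569 cells and 132310415 UMIs, and the multiome library 3022 nuclei with 27225261 UMIs and 11524249 ATAC counts.

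Cells of the aggregated matrix were clustered without the subunit genes (2000 variable genes, 150 components, 20 neighbours, Leiden resolution 1) and named by marker lists. A cluster needed 3 raised markers, and SGP types were matched to the nuclei by correlation. Germ cells were sexed by a mixture of 2 normal distributions of the ratio of X-linked to autosomal UMIs, at a posterior of 0.95. Scrublet called 0.289% and 4.38% of cells doublets, which were kept. Nuclei were placed in the clusters of the study by finding the nuclei whose counts add up to the cluster means in its supplement, which was exact for 1791 of 1791 sums left out of the solution; 1016 nuclei in no cluster of that list were not used.

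UMIs were summed per class and given as CPM. Shares and ratios have exact Clopper-Pearson intervals and levels exact Poisson intervals, all at 95% and for counting error only. The ratio intervals and calls were checked on UMIs simulated with counting error alone. There 95.6% of intervals held the true ratio for stage 1 over GC and 95.1% for stages 2 and 3 over SGPs. The simulated UMIs had no spread between cells, embryos or libraries, so the check cannot speak to these. Genes named with values are the 3 largest and 3 smallest ratios of a comparison, the active subunits, X-linked members and paralogs with at least 20 UMIs; others with values were chosen after theirs were seen. The members and lists were chosen with earlier results of these data known. Alternatives covered doublets, clustering, sexing, summing, the denominator, the matrix, the UMI minimum and the fold. Clustering ran in scanpy 1.11.5 and igraph 0.11.9 (random seed 1), intervals in scipy 1.17.1, tables in pandas 2.3.3 and numpy 2.4.6, and plots in matplotlib 3.10.9, all under Python 3.11.15.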

Additional observations from a re-analysis of the deposited data

Results flagged for a closer look

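The step from stage 2 to stage 3 went in opposite directions in female and male germ cells. The canonical share changed by a ratio of 0.916 in females and 1.13 in males, the 20S share by 0.939 and 1.18, and the 19S share by 0.887 and 1.06. The difference between the sexes was not tested, since each stage and sex comes from 1 library, and the female direction depends on the denominator. With ribosomal protein and mitochondrial genes left out of it, the female 20S share went from 0.722% to 0.744% and the 19S share from 0.565% to 0.549%, while the male shares went from 0.735% to 0.884% and from 0.572% to 0.618%. For 9 genes (Prosalpha3, Prosalpha5, Prosbeta2, Prosbeta6, Rpn1, Rpn7, Rpn9, Rpn11 and Rpn13) the counting intervals of the sexes lay on opposite sides of 1. Rpn13 went the other way from the sums, with log2 ratios of 0.14 in females and -0.10 in males.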

How the results depend on the processing

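Among the alternatives 68 were classed as unchanged, 45 as moved and 2 as reversed. A ratio, share or level was unchanged if it stayed within the counting interval of the main value. Numbers of calls have no interval and were unchanged within 1.5-fold of the main number. These include comparisons without a call in either setting. With ribosomal protein and mitochondrial genes out of the denominator, the female step from stage 2 to stage 3 came to 1.00 in place of 0.916 and FGC1 over MGC1 nuclei to 0.914 in place of 1.13. The same setting gave 0.752 for stage 1 over GC, 0.822 for stage 2 over stage 1, 1.15 for the male step to stage 3, 0.984 and 0.860 for female over male at stages 2 and 3, 1.28 for GC over FGC1 nuclei and 1.63 for FGC2 over FSGP nuclei. With 50 components and Leiden resolution 2 the values were 0.755 for stage 1 over GC, 0.718 for stage 2 over stage 1, 0.932 for the female step to stage 3, 0.961 and 0.789 for female over male at stages 2 and 3, and 2.38 for germ cells over SGPs. As means of the cells' own values, they were 0.729, 0.744, 0.898 and 1.09 for these steps (female, then male, at stage 3), 0.967 and 0.794 for female over male at stages 2 and 3, 2.65 over SGPs, and 1.24, 1.49 and 1.52 for FGC1 over MGC1, GC over FGC1 and FGC2 over FSGP nuclei. In the libraries' own matrices stage 2 over stage 1 was 0.728 and the paralogs of germ cells stood at 104 in place of 108 CPM. Without doublets germ cells over SGPs came to 2.54.

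Clustering the nuclei anew gave 1.5 for FGC2 over FSGP in place of 1.46 where each cluster took its most frequent placed name, though some of those names rested on few nuclei. Where a name had to hold for at least 50% of a cluster's nuclei, a rule chosen after the first value had been seen, it gave 1.62. No new cluster had FGC1 as its most frequent name, so the other nuclear ratios have no value there. Calls of members summed over both stage steps, with a gene called at each step counted at each, numbered 31, and 7 at a fold of 2. By step, 3 in place of 14 were called at stage 1 over GC and 4 in place of 17 at stage 2 over stage 1, and 0 in place of 8 between FGC3 and MGC3, where setting the median ratio to 1 gave 4. The 20S and 19S ratios of stage 1 over GC were 0.581 and 1.03 with the reduced denominator, and those of stage 2 over stage 1 were 0.964 and 0.692; these and the removal of the largest nuclei were chosen after seeing the data. Samples could not be paired because each group is 1 library. The RNA and ATAC counts, read from the same nuclei, were given by cluster and not paired by nucleus. Without replicates, the spread between embryo collections is unknown.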
